A study of Danio rerio with 8 samples.

Results

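The genes described here govern how glucose enters a cell, how it is trapped, and how lactate is made and leaves. They were chosen by symbol as a list of 10: the glucose transporter genes slc2a1a, slc2a1b and slc2a12, the hexokinase genes hk1 and hk2, the regulator genes pfkfb3 and pfkfb4b, the lactate dehydrogenase genes ldha and ldhba, and the lactate transporter gene slc16a3. Of these, 8 were found by symbol among the 21234 genes of the count table, while ldhba and pfkfb3 are not analysed here. Of the 8, 4 (slc2a1b, hk1, hk2 and slc16a3) passed the filter on low counts and were tested. The other 4 are given by their counts.

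RNA was sequenced from cells of dissociated ventricles of adult zebrafish, which the labels name cardiomyocytes, in 4 control libraries and in 4 from fish that overexpressed Hmga1a, a chromatin protein. All fish carried the red fluorescent reporter cmlc2:dsred, driven by the promoter of a cardiac myosin light chain gene. The labels put all 8 libraries, controls included, at 14 days after tamoxifen, the agent used to switch on the overexpression. The sources used here do not give the promoter behind the inducible construct, the wild-type strain, the exact age, how cells were selected or the number of fish per library. P-values therefore measure the spread between these libraries, which may in part be technical.

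Glucose crosses the plasma membrane through facilitative transporters of the SLC2 (GLUT) family and is held in the cell once a hexokinase phosphorylates it. The pfkfb enzymes make and break down the sugar phosphate that activates phosphofructokinase and so set the pace of the chain. Lactate dehydrogenase interconverts pyruvate and lactate, and monocarboxylate transporters of the SLC16 family carry lactate across the membrane together with a proton. The adult heart draws mostly on fatty acids, and raised glucose uptake and lactate release are known from embryonic, hypoxic and injured heart muscle.

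Library totals ranged from 49598 to 352807 corrected transcript counts in controls and from 302157 to 572295 with overexpression. Control 2 was the shallowest, so that 1 count in it stands for 30.2 CPM (a count relative to the library's total, with totals adjusted between libraries by the TMM method of edgeR), against 1.65 to 5.36 CPM in the other 7. Mitochondrial RNA made up 44.9% to 67.7% of counts in controls and 28.1% to 35.1% with overexpression. The target transcript hmga1a (LL0000012165) ranged from 30.2 to 127.4 CPM in controls and from 80.7 to 132.8 CPM with overexpression, and its log2 fold change, 0.47 ± 0.30 (SE), missed the threshold (adjusted p = 0.177, edgeR's quasi-likelihood test). Of the 9 cardiomyocyte markers in the table, 8 were tested, of which 6 rose and 2 (the titin genes) fell. Of all genes tested, 30.4% were called higher and 29.2% lower (adjusted p under 0.05). The untested marker, myl7, whose promoter drives the reporter, had 1 count in all. The summed level of the 9 markers was 15197 to 21330 CPM in controls and 36944 to 42161 CPM with overexpression. By these levels the labelled cell type was present in both groups.

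The 4 tested genes did not move together with Hmga1a overexpression. In the fit to counts, the glucose transporter gene slc2a1b fell to 0.562 times and the lactate transporter gene slc16a3 to 0.429 times its control level. The hexokinase gene hk1 rose 1.47-fold. These fitted folds are not ratios of the mean CPM given below. The second hexokinase gene, hk2, was at -0.11 on the log2 scale and missed the threshold. Thus 1 of the 4 was called higher and 2 lower (edgeR's quasi-likelihood test, Benjamini-Hochberg adjusted p under 0.05), where 59.6% of the 2501 genes tested were called, 30.4% higher and 29.2% lower. These counts are near that background, and for none of the 4 were the libraries of one group all above or all below those of the other, as they were for 43.3% of the genes tested.

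**Figure D1:**
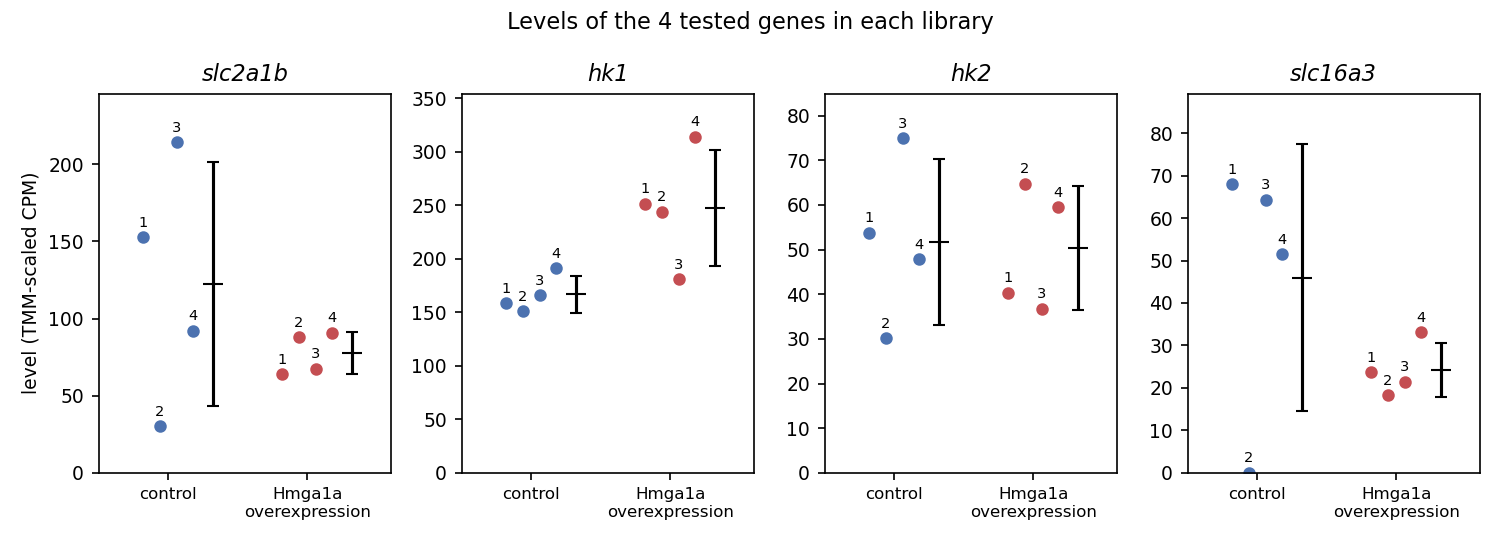
Level of slc2a1b, hk1, hk2 and slc16a3 in TMM-scaled CPM (vertical axes) in the 4 control (blue) and 4 overexpression (red) libraries, numbered by replicate; black bars give the mean and SD of each group. The wide control spread of slc2a1b and slc16a3 includes control 2, at 30.2 and 0 CPM, while hk1 lies at 150.8 to 191.3 CPM in controls and 180.7 to 314 CPM with overexpression.

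At the entry step, slc2a1b (LL0000028669) encodes a GLUT1-type transporter, the kind that supplies basal glucose in most vertebrate tissues. Its level was 152.9, 30.2, 214.3 and 92.0 CPM in controls 1 to 4, resting on 54.35, 1, 40.19 and 25.07 corrected counts. In overexpression libraries 1 to 4 it was 64.1, 88.0, 67.4 and 90.9 CPM, from 27.09, 53.34, 22.06 and 55.37 counts. Control 2 lay below every overexpression library on a single count, and the other 3 controls lay above all 4 of them, control 4 by only a narrow margin over overexpression 4. Group means came to 122.3 ± 79.2 in controls and 77.6 ± 13.8 CPM with overexpression (SD, n = 4), so the controls also differed more among themselves than the overexpression libraries did. The log2 fold change was -0.83 ± 0.30 (SE), with an adjusted p of 0.0169 in edgeR's quasi-likelihood test, and 0 of 4 overexpression libraries exceeded the control mean. The call was lost without control 3 (-0.55, adjusted p = 0.152, edgeR), without overexpression 1 (-0.70, 0.0596) and without overexpression 3 (-0.72, 0.0583). It was also lost with library totals in place of TMM (-0.46, 0.247) and with no filter (-0.58, 0.206).

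The related gene slc2a1a (LL0000028668) had 1 count in control 3, 1 in overexpression 3 and 0 in the other 6 libraries. Almost all counts of the GLUT1 pair were thus assigned to slc2a1b, 97.6% to 100% per control library and 95.7% to 100% per overexpression library. The Wilson 95% interval for overexpression 3, the lowest, ran from 79.0% to 99.2% of 23 counts. Reads that the copies share could have been counted for either, and no source used here says how such reads were treated. The gene slc2a12 (LL0000028664) encodes GLUT12, a transporter whose loss in zebrafish embryos is known to cause heart failure. It had 1, 0, 1 and 2 counts in controls 1 to 4 and 0, 0, 0 and 2 with overexpression. With 4 counts in all controls and 2 in all overexpression libraries, a difference between the groups was not detectable at this depth.

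Other transporters of the same family were lower with overexpression. The slc2a6 gene (LL0000028674), whose mammalian product GLUT6 is a lysosomal transporter known from macrophages, was at 509.6, 211.2, 434 and 445.2 CPM in controls 1 to 4. It was at 168.5, 139.4, 82.7 and 97.5 CPM with overexpression, so every overexpression library lay below every control. The fall was -1.83 ± 0.22 on the log2 scale (SE; adjusted p = 5.1e-08, edgeR). The GLUT3-type gene slc2a3b, a high-affinity transporter best known from neurons in mammals, was at 53.8 to 77.3 CPM in controls and 9.19 to 24.8 CPM with overexpression, again with no overlap (-1.69 ± 0.39, adjusted p = 0.000378, edgeR). Both genes stayed lower under all 18 alternative settings tried, including library totals alone (-1.43 and -1.32). Each of the tested SLC2 genes, slc2a1b, slc2a3b and slc2a6, was therefore called lower, where 29.2% of all genes tested were. For slc2a1b, however, the groups overlapped and the call was held in 12 of 18 alternatives. Groups lay apart with overexpression lower for 17.6% of all genes tested. The genes slc2a3b and slc2a6 came from a list of 36 further members of the transporter, hexokinase, dehydrogenase and pfkfb families. Of that list, 28 were in the table and 3 were tested. Of the 25 that were not tested, 10 had no count in any library, 13 had 1 to 14 counts over all 8 libraries, and slc16a9a and slc16a10 had 34 and 43.

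Markers of other cell types moved in the same libraries as these transporters. All 5 tested endothelial and endocardial markers fell (12 of 16 in the table, median -1.76 on the log2 scale, summed level 1340 to 1826 CPM in controls and 287.1 to 464.4 CPM with overexpression, cdh5 and plvapa at 0). All 6 tested leukocyte markers fell (11 of 15 in the table, median -1.80, 4133 to 7969 CPM against 1706 to 2385 CPM, coro1a at 0), and so did both tested fibroblast markers (8 of 12 in the table, median -2.58, 857.2 to 1730 CPM against 156.6 to 210.8 CPM, none at 0). Of all genes tested, 29.2% were called lower. Other lists were mixed. All 3 tested smooth muscle and pericyte markers, acta2, tagln and myocd, rose, where 30.4% of all genes tested were called higher. All 7 listed were in the table, with a summed level of 478.4 to 1177 CPM in controls and 1425 to 1948 CPM with overexpression. Of those not tested, notch3 had no count. The means of myh11a (56.0 CPM in controls, 4.56 CPM with overexpression), cspg4 (16.6 and 4.25) and pdgfrb (9.76 and 0.41) were lower. Of 3 tested epicardial markers (7 of 8 in the table), anxa2a rose from a mean of 900.5 to 2320 CPM. The other 2 fell, krt4 from 208 to 57.8 CPM and krt18a.1 from 698.6 to 310.3 CPM. Untested wt1a and wt1b had lower means on few counts, and tbx18 had no count. The higher sum of this list (1560 to 2078 CPM in controls, 2533 to 2807 CPM with overexpression) thus rests on anxa2a. In bulk RNA, fewer cells of a type and less RNA per cell cannot be told apart, and the part of these cell types in the levels of slc2a1b, slc2a3b, slc2a6 and slc16a3 was not tested. Per 1000 leukocyte marker counts of the same library, slc2a1b had 7.30 to 31.4 counts in controls and 27.4 to 39.9 with overexpression. Per 1000 cardiomyocyte marker counts it had 1.41 to 12.8 in controls and 1.602 to 2.48 with overexpression. The direction of the difference between the group means thus depended on the marker list that served as the denominator. Each list leaned on an abundant gene. For leukocytes it was cd74a (mean 4036 CPM in controls, 1274 CPM with overexpression), and for cardiomyocytes mb (6971.5 and 16634.5 CPM).

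**Figure D2:**
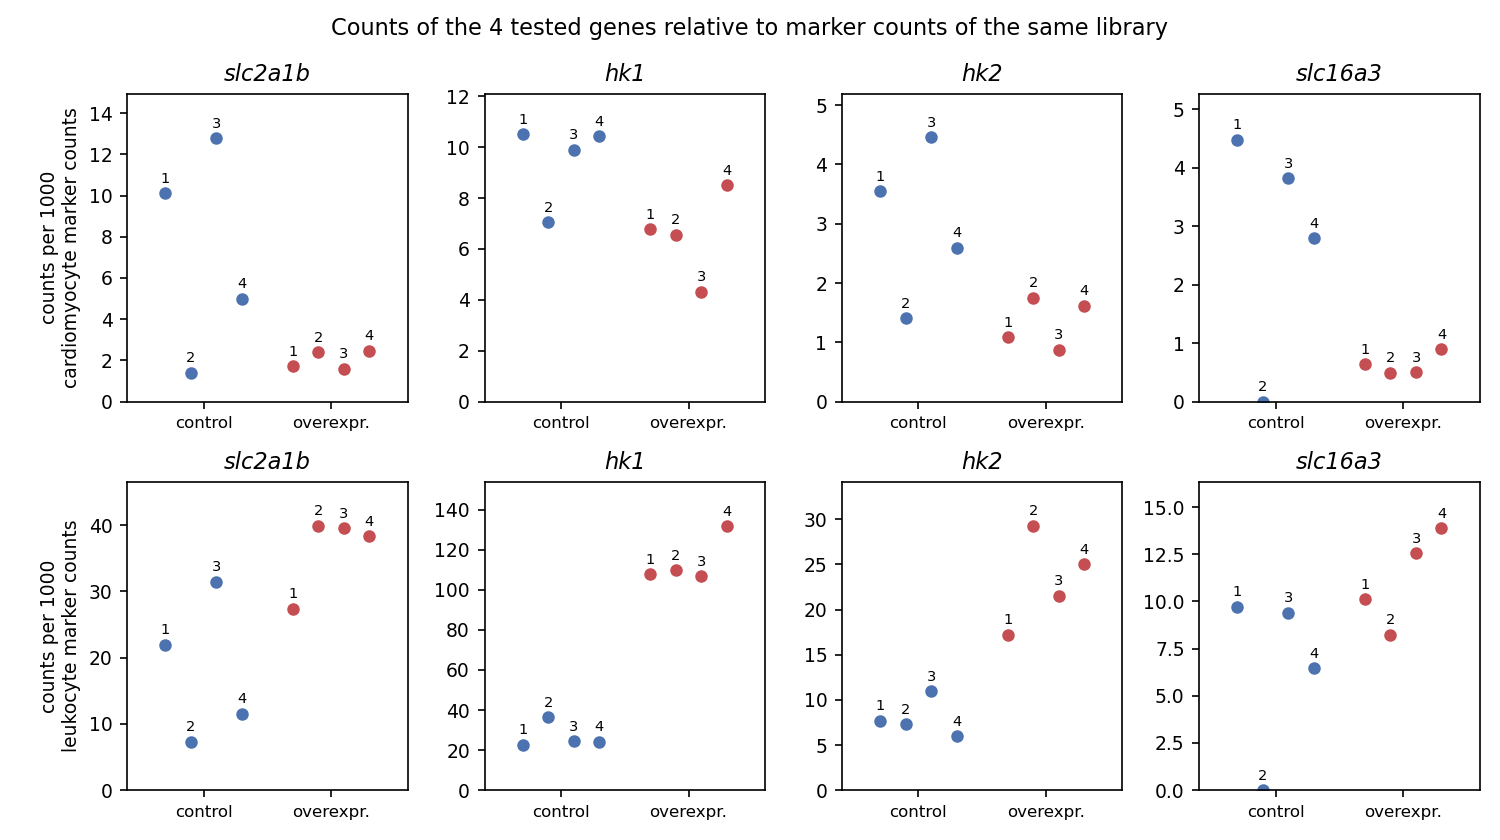
Counts of slc2a1b, hk1, hk2 and slc16a3 per 1000 counts of the cardiomyocyte markers (upper row) and of the leukocyte markers (lower row) of the same library, for 4 control (blue) and 4 overexpression (red) libraries numbered by replicate. Relative to cardiomyocyte markers slc16a3 lies at 0.493 to 0.897 with overexpression and at 2.80 to 4.48 in controls other than control 2, which has 0; relative to leukocyte markers hk1 lies at 22.8 to 36.5 in controls and 107 to 132 with overexpression.

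The first step after entry, phosphorylation of glucose, is carried out by hexokinases. In mammals hexokinase 1 is the widely expressed form and hexokinase 2 the form of muscle and fat, and both can bind the outer mitochondrial membrane. The hk1 transcript (LL0000012148) was at 158.5, 150.8, 166.1 and 191.3 CPM in controls 1 to 4, from 56.38, 5, 31.11 and 52.33 counts. It was at 251.5, 244, 180.7 and 314 CPM in overexpression libraries 1 to 4, from 106.36, 146.57, 59.42 and 190.33 counts. All 4 overexpression libraries lay above the control mean, and the groups overlapped only in that overexpression 3 was below control 4. Means were 166.7 ± 17.5 CPM in controls and 247.6 ± 54.5 CPM with overexpression (SD, n = 4). The fitted log2 fold change was 0.55 ± 0.22 (SE, adjusted p = 0.0284, edgeR). The call was lost without control 1 (0.43, adjusted p = 0.143, edgeR), without control 3 (0.53, 0.0640) and without overexpression 4 (0.46, 0.0960). With libraries scaled on contractile genes, where the median of all genes shifts by -1.35, hk1 was called lower (-0.77, adjusted p = 0.0243, edgeR). Per 1000 cardiomyocyte marker counts hk1 had 7.06 to 10.5 counts in controls and 4.32 to 8.51 with overexpression; the part of these markers in its level was not tested.

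For hk2 (LL0000012149) the levels were 53.8, 30.2, 75.01 and 47.8 CPM in controls 1 to 4, from 19.04, 1, 14.02 and 13.02 counts. With overexpression they were 40.3, 64.7, 36.7 and 59.5 CPM, from 17.03, 39.18, 12.02 and 36.15 counts. The groups overlapped almost fully, with means of 51.7 ± 18.5 and 50.3 ± 13.9 CPM (SD, n = 4). The log2 fold change of -0.11 ± 0.35 (SE) did not pass (adjusted p = 0.795, edgeR), and its 95% interval, from -0.82 to 0.59, leaves room for a change of either sign. Its sign was positive when library totals replaced TMM (0.25) or the filter was dropped (0.12), and it was called lower with scaling on contractile genes (-1.46, adjusted p = 0.00311).

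The share of hk2 in the counts of both hexokinase genes does not depend on how libraries are scaled. It was 23.2% ± 6.31 in controls and 16.9% ± 3.06 with overexpression (SD, n = 4), with library ranges of 16.7% to 31.1% and 13.8% to 21.1%. The ranges overlapped and no test was made of this share. The control 2 share rests on 1 of 6 counts (Wilson 95% interval 3.01% to 56.4%), and those of controls 1, 3 and 4 on 45 to 75 counts. The hexokinase-like gene hkdc1 had 5 counts, all with overexpression.

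The pfkfb enzymes stand beside the chain and adjust the activator of phosphofructokinase. The pfkfb4b transcript (LL0000021636) had 3, 0, 1 and 7.01 counts in controls 1 to 4 and 5, 4, 3 and 15.03 counts in overexpression libraries 1 to 4. Overexpression 4 and control 4 held the most in their groups, and the ranges overlapped. The group sums of 11 and 27 counts were 11.2 and 15.1 CPM of all counts in their group. Tested with no filter, its log2 fold change was 0.29 ± 0.73 (SE, adjusted p = 0.778, edgeR). Of its relatives, pfkfb1 and pfkfb4a had 0 counts in every library and pfkfb2a had 3 counts, all in 1 overexpression library.

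**Figure D3:**
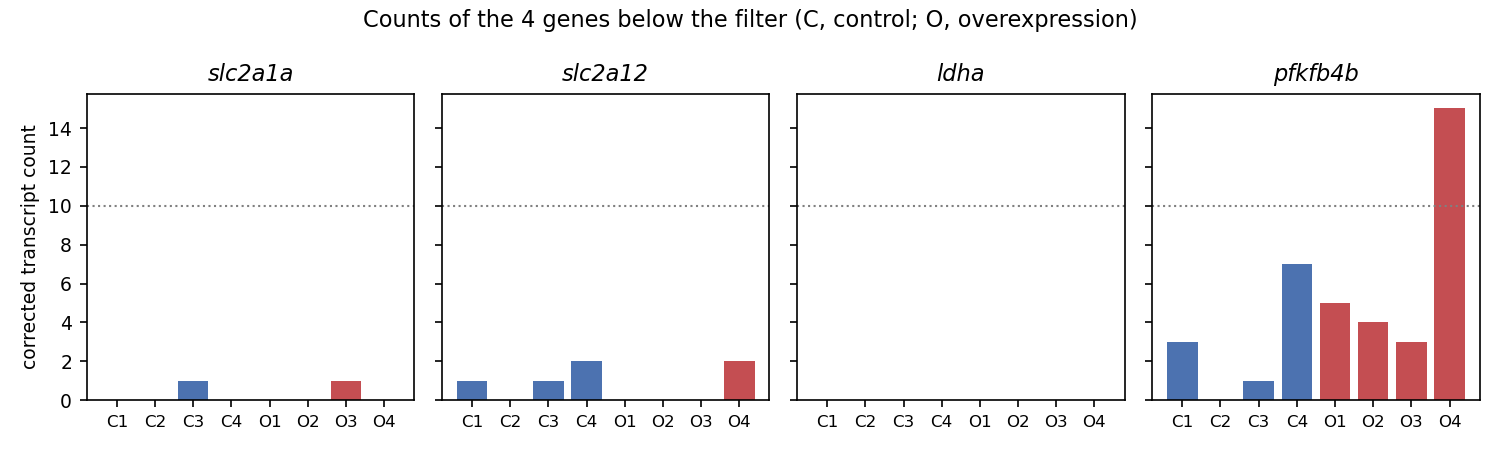
Corrected transcript counts (vertical axis) of slc2a1a, slc2a12, ldha and pfkfb4b in control libraries C1 to C4 (blue) and overexpression libraries O1 to O4 (red); the dotted line marks a count of 10, the minimum the filter asks of a library of median size. The highest bar is pfkfb4b in overexpression 4, at 15.03 counts, and ldha is at 0 in every library.

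At the exit, ldha (LL0000013579), the subunit gene usually linked to lactate formation, had 0 counts in all 8 libraries. A count of 0 allows up to 3.05 CPM of the 984788 control counts and up to 1.68 CPM of the 1783270 overexpression counts, counting error only. Transcripts that heart muscle is known to use were also nearly uncounted in this table, with 1 count in all 8 libraries for myl7, the cardiac myosin light chain gene, and 3 for mdh2, the mitochondrial malate dehydrogenase gene. A count at or near 0 here is therefore no measure of how much of a transcript the cells held. The gene ldhbb, a relative of the heart-type subunit gene, had 7 counts, all in 2 overexpression libraries, and ldhd, for the mitochondrial enzyme that oxidises D-lactate, had 1 count in controls and 13 with overexpression. The interconversion of pyruvate and lactate is thus hardly covered by these counts.

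The slc16a3 gene (LL0000028509) encodes MCT4, the monocarboxylate transporter known in mammals for lactate export from glycolytic muscle fibres and activated leukocytes. Its level was 67.9, 0, 64.3 and 51.5 CPM in controls 1 to 4, from 24.07, 0, 12.02 and 14.02 counts. It was 23.7, 18.3, 21.4 and 33.1 CPM in overexpression libraries 1 to 4, from 10.01, 11.01, 7.01 and 20.05 counts. Controls 1, 3 and 4 lay above every overexpression library, while control 2 had no count, which allows up to 90.5 CPM in that library. Controls averaged 45.9 ± 31.4 CPM and overexpression libraries 24.1 ± 6.36 CPM (SD, n = 4), and 0 of 4 overexpression libraries exceeded the control mean. The log2 fold change was -1.22 ± 0.40 (SE, adjusted p = 0.00922, edgeR), and -1.28 without control 2 (adjusted p = 0.00461). The call was lost without control 1 (-1.13, adjusted p = 0.0546, edgeR), when library totals replaced TMM (-0.87, 0.0839) and when the filter was dropped (-0.98, 0.126). Per 1000 leukocyte marker counts slc16a3 had 0 to 9.72 counts in controls and 8.24 to 13.9 with overexpression, and per 1000 cardiomyocyte marker counts 0 to 4.48 and 0.493 to 0.897.

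The MCT1-type gene slc16a1b, whose mammalian counterpart carries lactate in both directions in oxidative tissue, was at 164.2, 60.3, 85.7 and 132.4 CPM in controls and 156.6, 109.6, 116.4 and 162 CPM with overexpression. The groups overlapped, and the log2 fold change of 0.11 ± 0.26 (SE, 95% interval -0.42 to 0.64) did not pass (adjusted p = 0.725, edgeR). The difference between the changes of slc16a3 and slc16a1b was not tested. Basigin, encoded by bsg, is the membrane partner that MCT1 and MCT4 need to reach the cell surface. It rose from 195 to 252 CPM in controls to 390 to 401 CPM with overexpression, with no overlap (0.77 ± 0.18, adjusted p = 0.000685, edgeR), and was at -0.59 with scaling on contractile genes. In the list of 12 partner and trafficking genes, 5 were in the table and 3 were tested, with 2 higher, 1 lower and a median of 0.77. Over all genes tested, 30.4% were called higher and 29.2% lower, and for 43.3% the groups did not overlap. Beside bsg, the vesicle protein gene vamp3 rose (1.05 ± 0.26, adjusted p = 0.000831; -0.34 with scaling on contractile genes) and rab10, which in mammalian fat cells takes part in moving glucose transporters to the surface, fell (-0.55 ± 0.20, adjusted p = 0.0161; -0.17 with library totals alone, 0.546).

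Between entry and exit lie the enzymes of the glycolytic chain, most of which were higher with overexpression. Of 28 genes listed, 26 were in the table and 18 were tested, of which 14 rose and 0 fell. Of all genes tested, 30.4% were called higher and 29.2% lower. The median change of the 18 chain genes on the log2 scale was 0.96, where that of all genes tested was 0.01. Cardiomyocyte markers, summed above, were higher in the same libraries, and their part in the levels of these enzymes was not tested. Muscle enolase eno3 rose from 748.5 ± 184.7 to 2855 ± 351 CPM (SD, n = 4). The triosephosphate isomerase gene tpi1b rose from 558.3 ± 137.6 to 1643 ± 108 CPM, the aldolase gene aldoab from 765.1 ± 214.7 to 1967 ± 111 CPM and the phosphoglycerate kinase gene pgk1 from 645.6 ± 126.8 to 1482 ± 33.5 CPM, each with an adjusted p of at most 2.0e-08 (edgeR) and with no overlap. The 4 chain genes that missed the threshold were pfkpa (0.53, adjusted p = 0.0574), gapdh (-0.74, 0.138), gapdhs (-0.31, 0.117) and pgam1b (-0.15, 0.725, edgeR). With scaling on contractile genes 2 chain genes were called higher and 5 lower, and pgk1 was at -0.06. That setting called 43 of all 2501 genes tested higher and 1608 lower. In addition, 1 chain gene was called lower without control 2, without control 3, without overexpression 3 and with the 6 libraries that the authors compared.

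**Figure D4:**
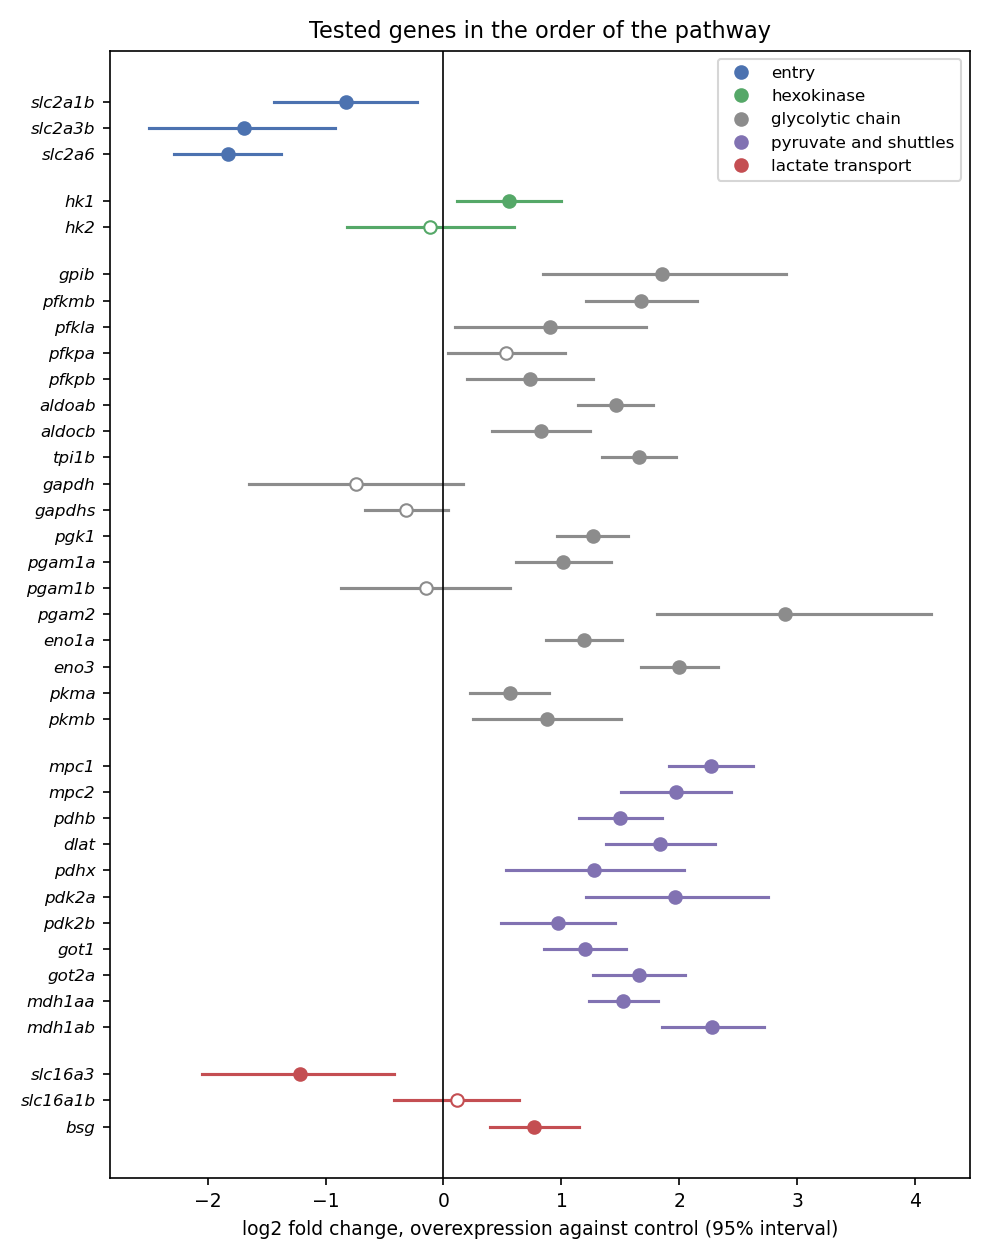
Log2 fold change of overexpression against control (horizontal axis, points) with the 95% interval (lines) for tested genes in pathway order: SLC2 transporters (blue, labelled entry), hexokinases (green), the glycolytic chain (grey), pyruvate entry and shuttle enzymes (purple) and lactate transport (red). The blue points include slc2a6, whose mammalian product is lysosomal. Filled points passed an adjusted p under 0.05; the blue points and slc16a3 lie to the left of 0, and all 11 purple points lie to the right.

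Pyruvate that is not turned into lactate enters mitochondria through a carrier made of the mpc1 and mpc2 products and meets the pyruvate dehydrogenase complex. Of 29 genes listed for this step and for the shuttles of reducing equivalents, 24 were in the table and 11 were tested, and all 11 rose, with a median of 1.66, where 30.4% of all genes tested were called higher. The 11 include genes for kinases that inhibit the complex, pdk2a (1.97 ± 0.38, SE, adjusted p = 5.0e-05, edgeR) and pdk2b (0.97 ± 0.24, 0.000834). The rise of the list thus covers genes of opposite effect on this step. The summed cardiomyocyte markers were also higher in these libraries (36944 to 42161 CPM against 15197 to 21330 CPM in controls), and their part in this rise was not tested. The carrier gene mpc1 was at 178.4, 271.5, 171.5 and 224.4 CPM in controls and 942, 886.5, 1050 and 937 CPM with overexpression, so the groups were far apart (2.27 ± 0.17, SE, adjusted p = 6.5e-12, edgeR). Its partner gene mpc2 was at 76.4 to 106.7 CPM in controls and 312.1 to 454.5 CPM with overexpression, again far apart. The dehydrogenase gene pdhb rose from 304.4 ± 106.5 to 932.5 ± 55.4 CPM. The shuttle genes mdh1aa and mdh1ab, for cytosolic malate dehydrogenase, which regenerates the NAD needed by glycolysis without making lactate, rose by 1.52 ± 0.14 and 2.28 ± 0.21 on the log2 scale (adjusted p = 3.9e-10 and 2.7e-10, edgeR). The gene mpc1 was also higher with scaling on contractile genes (0.91, adjusted p = 0.00159, edgeR). In that setting 2 genes of this list were called higher and 0 lower, beside 43 higher and 1608 lower of all 2501 genes tested.

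Genes of the branches that store or divert phosphorylated glucose moved in both directions. Of 18 listed genes of glycogen and the pentose phosphate branch, 16 were in the table and 7 were tested, with 3 higher, 1 lower and a median of 0.22, a share of calls near the 59.6% of all genes tested. With scaling on contractile genes 0 were higher and 4 lower, beside 43 higher and 1608 lower of all 2501 genes tested. In that setting pgm1 (0.36, adjusted p = 0.353, edgeR) and pygmb (0.0059, 0.987) were no longer called. The phosphoglucomutase gene pgm1 rose from 58.3 ± 11.4 to 189 ± 25.2 CPM and the muscle glycogen phosphorylase gene pygmb from 107.1 ± 18.02 to 273.1 ± 25.9 CPM (SD, n = 4). The related gene pygma was not tested, with at most 11.01 counts in a library. Its mean was 32.0 CPM in controls and 14.1 CPM with overexpression, and every overexpression library lay below every control. The debranching enzyme gene agla rose (1.28 ± 0.44, adjusted p = 0.0128, edgeR), a call lost without control 1, without overexpression 3 and with scaling on contractile genes, where its sign turned (-0.093, 0.868). The transketolase gene tktb of the pentose phosphate branch fell (-0.87 ± 0.33, adjusted p = 0.0218), a call held in 11 of 18 alternatives.

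Several of the genes described here are known targets of hypoxia-inducible factors in vertebrates, so other genes of that response were listed as well. Of 26 listed, 24 were in the table and 7 were tested, with 1 higher, 2 lower and a median of -0.25. Over all genes tested 59.6% were called, 30.4% higher and 29.2% lower, so the list was not called more often than that background. The factor gene epas1b, for a HIF-2 alpha subunit and known from endothelium, fell from 228.3 ± 82.8 to 52.4 ± 13.6 CPM (-2.23 ± 0.26, SE, adjusted p = 2.1e-08, edgeR), and stayed lower in all 18 alternatives. The factor gene hif1ab fell (-0.63 ± 0.21, adjusted p = 0.0123), a call lost when library totals replaced TMM (-0.26, 0.363), when the filter was dropped and without overexpression 4. The mitophagy receptor gene bnip3 rose from 41.3 ± 16.8 to 115.5 ± 42.2 CPM (1.37 ± 0.34, adjusted p = 0.00106, edgeR). It was at 0.037 (adjusted p = 0.939, edgeR) with scaling on contractile genes. That setting called 0 listed genes higher and 6 lower, beside 43 higher and 1608 lower of all 2501 genes tested. The endothelial, leukocyte and fibroblast markers fell, and 6 of 8 tested cardiomyocyte markers rose, in the same libraries; their part in the levels of these genes was not tested.

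The genes whose log2 level ran most like that of a tested member over the 8 libraries differed from member to member. For slc2a1b they were gclm (Pearson r = 0.96), peli1b (0.94) and midn (0.94), and for hk1 they were mmadhc (0.94), syap1 (0.93) and pxna (0.92). For hk2 they were asb5b (0.93), reep5 (0.91) and spryd7a (0.91), and for slc16a3 they were usp19, plek and lrrc15 (each 0.99). These correlations describe 8 libraries of shared depth and grouping. In the shallow control 2, slc16a3, usp19, plek and lrrc15 all had 0 counts. There slc2a1b and hk2 had 1 count each and hk1 had 5, and the genes most like these members had from 0 (peli1b and spryd7a) to 4.00 (midn). All these correlations thus include a library with counts near 0.

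The authors' deposited table compares 3 control and 3 overexpression libraries, whose counts equal those of controls 1, 3 and 4 and overexpression 2, 3 and 4. In the authors' deposited table the log2 fold change is 0.84 for hk1 (adjusted p = 0.0103), -1.003 for slc16a3 (adjusted p = 0.0554), -0.53 for slc2a1b (adjusted p = 0.202) and 0.26 for hk2 (adjusted p = 0.795). Fitted here to the same 6 libraries, the values were 0.58 for hk1, -1.26 for slc16a3, -0.80 for slc2a1b and -0.02 for hk2, and hk1, slc16a3 and slc2a1b passed (adjusted p = 0.0304, 0.00869 and 0.0217, edgeR). For pfkfb4b and slc2a12 the authors' deposited table gives 0.34 and -1.45 (adjusted p = 0.896 and 0.458).

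**Figure D5:**
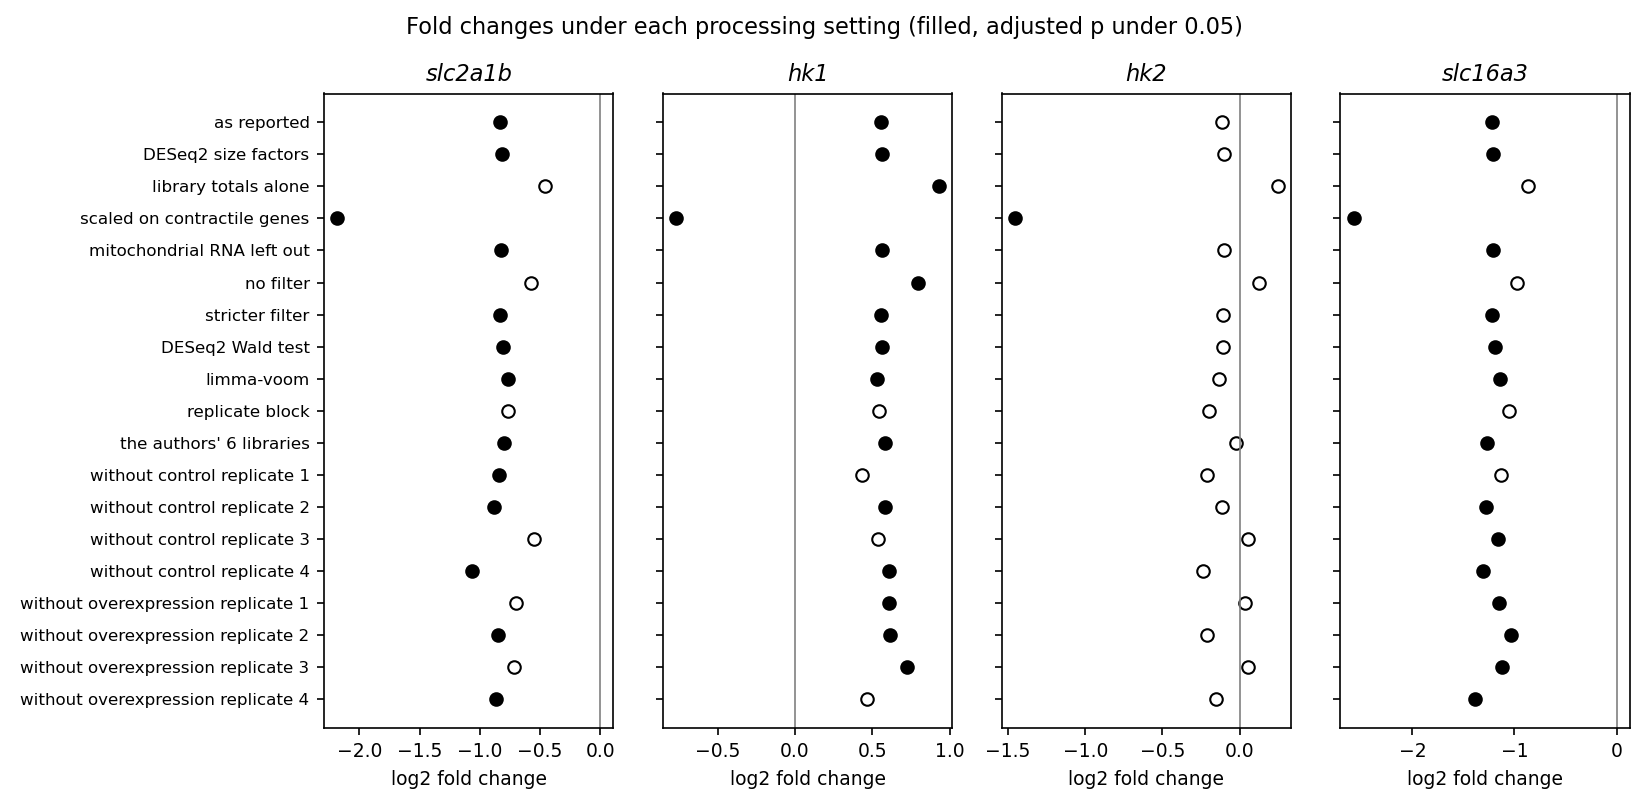
Log2 fold change of slc2a1b, hk1, hk2 and slc16a3 (horizontal axes) as reported and under the 18 alternative settings (rows); filled points passed an adjusted p under 0.05. The values of slc2a1b and slc16a3 are below 0 in every row, hk1 is below 0 only with scaling on contractile genes, and hk2 lies on either side of 0.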

How the data were processed

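The authors deposited estimated counts per gene, that is, unique molecular identifiers with a correction for repeated use of an identifier. With 4096 possible identifiers (6 nucleotides), the correction turned 100% of the 61959 non-zero values back into whole numbers (tolerance 0.01). Per the submitters' processing notes, the build was danRer11 and edgeR was used; aligner, counter, annotation and strand setting are not given there. Spike-in entries, 67 in all, were left out. The authors' deposited comparison holds log2 fold changes and p-values per gene, per the file headers, and 6 of the libraries (100% of values equal, tolerance 1e-06).

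Counts were rounded and fitted in R 4.3.3 with edgeR 4.0.16 (filterByExpr, minimum count 10; TMM; robust quasi-likelihood test, no covariate; Benjamini-Hochberg over all 2501 genes tested). SEs come from the coefficient and its F statistic. DESeq2 1.42.0 and limma 3.58.1 served as alternatives. Intervals and limits from 0 counts (3 counts) cover counting error only.

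The members, the 6 related lists, the 8 marker lists and the alternatives were chosen with earlier results of these data known. Named were all members, tested family members, up to 4 called genes of lowest p in each list, and the 3 genes most correlated with each tested member. Named after their values were seen were ldhbb, ldhd, hkdc1, pfkfb1, pfkfb2a, pfkfb4a, slc16a9a, slc16a10, pfkpa, gapdh, gapdhs, pgam1b, mpc2, pdk2a, pdk2b, pygma, mdh2 and myl7. All other single marker genes in the report were also named after their values were seen. Marker lists not given in the report were erythrocyte and thrombocyte (none tested). Same-numbered libraries are not stated to be pairs.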

Additional observations from a re-analysis of the deposited data

How the results depend on the processing

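The 4 tested members were refitted under 18 alternatives, of which slc16a3 kept its call in 14, hk1 in 13 and slc2a1b in 12. The fall of slc2a1b (-2.18 to -0.46) and slc16a3 (-2.58 to -0.87) kept its sign in all 18. Without single libraries, 0 to 1 members were called higher and 1 to 2 lower, all genes 629 to 861 higher and 671 to 852 lower, and related-list genes 28 to 32 higher and 4 to 7 lower; hk2 lay between -0.23 and 0.058 and was positive (0.058, 0.036 and 0.053) without control 3, overexpression 1 and overexpression 3. The difference in hk2 share lay between -8.49 and -3.69 percentage points, beside -6.30 with all libraries.

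Library totals alone gave 0 members, 479 genes and 3 related-list genes (beside 2, 730 and 6) called lower, with 66.8% of calls higher in place of 51.0%, a shift of the median of 0.37, and hk2 at 0.25. Scaling on contractile genes gave 0 members higher and 4 lower, 43 genes higher and 1608 lower (2.60% higher), and 4 related-list genes higher and 19 lower (beside 31 and 6), with hk1 at -0.77. Without a filter 0 members were called lower and hk2 was at 0.12. With the replicate block, 0 members were called in either direction, beside 696 genes higher and 652 lower. In that fit slc2a1b was at -0.76 (adjusted p = 0.0539, edgeR), hk1 at 0.55 (0.0611) and slc16a3 at -1.05 (0.0567). Deviations of same-numbered libraries from their group means correlated between -0.05 and 0.02, which showed no sign of pairing. Counting noise is part of these deviations, so the check does not settle whether libraries were paired. The cause of each change was not tested. The counts of slc2a1a, slc2a12, ldha and pfkfb4b were too low for the filter, and why they were low was not tested. Low depth limits every value of control 2.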
